A study of Mus musculus with 16 samples.

Results

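Cells show fragments of their own proteins on MHC class I molecules, and 10 mouse genes of this route were followed here through single-cell RNA profiles of neuroblastoma grafts. They were chosen by name, with earlier results of these data known, as 10 of the 19715 genes of the deposited matrix. H2-K1 and H2-D1 encode the classical class I heavy chains and B2m their shared light chain, beta-2 microglobulin. Tap1 and Tap2 form the transporter that moves peptides into the endoplasmic reticulum, and Tapbp encodes tapasin, which holds empty class I molecules at that transporter. Psmb8 and Psmb9 are catalytic subunits of the immunoproteasome, Psme2 is a subunit of the PA28 proteasome activator, and Nlrc5 is the transactivator of class I genes. All 10 genes had at least 20 unique molecular identifiers (UMIs, each counted as 1 captured RNA molecule) over the KO and WT graft cells together, in each of the 2 graft names used.

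The proteasome cuts proteins into peptides, and in cells exposed to interferon gamma the immunoproteasome subunits replace their constitutive counterparts. Peptides that pass the transporter and bind a heavy chain allow the complex to reach the cell surface, where CD8+ T cells read it, while natural killer (NK) cells respond to cells that lack it. Neuroblastoma, and NB9464D cells among its mouse models, is known for low surface class I that interferon gamma can raise.

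Tumors had been grown under the skin of male C57BL/6 mice, 8 weeks old at inoculation, from NB9464D, a transplantable mouse neuroblastoma line, and were taken on day 28 and digested with collagenase at 1 mg/mL. The mice either lacked CD200R (KO) or were wild type (WT). The genotype is thus that of the host, and the same line was grafted into both. Cd200r1 encodes CD200R, through which myeloid cells are held back. The labels give CD200R-/- as the genotype of each KO sample but CD200-/- in the growth protocol. From each genotype either all tumor cells were captured (KO tumor, WT tumor) or leukocytes sorted for CD45 (KO sorted, WT sorted). The labels list 16 samples, 4 in each of these 4 groups, but every cell carries only the name of its group. Each group was therefore 1 library with no replicate, and no test was made: a difference between KO and WT cannot be told apart from a difference between animals, grafts or captures.

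The KO tumor library held 5897 cells with a median of 16276 UMIs, and the WT tumor library 4955 cells with a median of 19850. The KO sorted library held 4305 cells with a median of 3127 UMIs, and the WT sorted library 5219 cells with a median of 4665. Leukocyte classes made up 20.98% of KO tumor cells and 6.48% of WT tumor cells. Cd200r1 had 0 UMIs in the leukocyte classes of the KO tumor and KO sorted libraries, against 76 UMIs in WT tumor and 2672 in WT sorted leukocytes. The libraries shared 113 cell barcodes, carried by 307 cells.

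Levels are in CPM, with the summed UMIs of each class and library as the denominator and exact 95% intervals that cover counting error only. Comparisons between KO and WT are log2 ratios of KO over WT from which the ratio of the median gene was taken off. A member is called higher or lower where its ratio reached 1.5-fold and both libraries together held at least 20 UMIs. The call is a rule of size and not a test.

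Cell type names are those of the authors. The graft was taken as the cells of the tumor libraries named neuroblastoma cells (1283 KO, 1665 WT) and fibroblasts (2493 KO, 2461 WT), because the markers did not separate these names. Of 10 neuroblastoma markers 5 had a row in the matrix. Hand2, a transcription factor of sympathetic neurons, was at 244.6 CPM in KO and 154 CPM in WT cells named neuroblastoma, and at 333 CPM in KO and 181 CPM in WT cells named fibroblasts. The collagen gene Col1a1 was at 402 CPM in KO and 578 CPM in WT cells named neuroblastoma, and at 631 CPM in KO and 723 CPM in WT cells named fibroblasts. The other neuroblastoma markers with a row were far lower in cells named neuroblastoma. Gata3 was at 8.32 CPM in KO and 3.60 CPM in WT, and Mycn at 4.91 CPM in KO and 3.56 CPM in WT. Stmn2 was at 1.73 CPM in KO and 0.477 CPM in WT, and Isl1 had 2 UMIs in KO and 0 in WT. Both kinds of marker were thus read in both names, the neuroblastoma kind mainly through Hand2. Col1a2, the partner chain of type I collagen, stood at 0.623 CPM in KO and 366 CPM in WT cells named neuroblastoma, and at 1.86 CPM in KO and 436.5 CPM in WT cells named fibroblasts. The grafts of the 2 genotypes thus differ in this gene by a wide margin, and in other fibroblast markers too. The 7 fibroblast markers summed to 1042 CPM in KO and 2643 CPM in WT cells named neuroblastoma. In cells named fibroblasts the sums were 2150 CPM in KO and 3188 CPM in WT. In cells named neuroblastoma Lum was at 71.2 CPM in KO and 367 CPM in WT, and Col3a1 at 336 CPM and 1055 CPM. Pdgfrb went the other way, at 10.2 CPM in KO and 7.16 CPM in WT. The part of these differences in the results below was not tested.

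Of the 10 genes, 7 lie on mouse chromosome 17, within the major histocompatibility complex (build mm10). H2-K1 (chr17:33996017-34000347, minus strand) and H2-D1 (chr17:35262730-35267499, plus strand) stand 1262 kb apart. Between them lie Psmb9 (chr17:34181987-34187764, minus), Tap1 (chr17:34187553-34197225, plus), Psmb8 (chr17:34197721-34201454, plus) and Tap2 (chr17:34203527-34216321, plus), while Tapbp (chr17:33915899-33929292, plus) lies just before H2-K1. B2m is at chr2:122147686-122153083 (plus), Nlrc5 at chr8:94434356-94527272 (plus) and Psme2 at chr14:55587441-55591113 (minus). Psmb9 and Tap1 run away from each other, and their 5' ends overlap by 212 bases in the GENCODE annotation. Their RefSeq starts do not overlap and have 225 bases between them. RefSeq promoters (GRCm38.p6) were at hand for 8 of the 10 genes.

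The sequences before the starts of H2-K1, H2-D1 and B2m, and that between the starts of Psmb9 and Tap1, are printed because these genes were at different levels in KO and WT grafts and not all in the same direction. The windows are chr17:34000348-34000597 on the minus strand for H2-K1, chr17:35262844-35263093 on the plus strand for H2-D1, chr2:122147437-122147686 on the plus strand for B2m and chr17:34187331-34187555 on the minus strand for Psmb9 towards Tap1. Capitals mark matches, on either strand, to 4 motifs: GGGATTCCC, an NF-kB site of class I promoters, AANNGAAA, the core bound by interferon regulatory factors, the CCAAT box and TGACG, a cyclic AMP response half-site known from class I promoters.
H2-K1: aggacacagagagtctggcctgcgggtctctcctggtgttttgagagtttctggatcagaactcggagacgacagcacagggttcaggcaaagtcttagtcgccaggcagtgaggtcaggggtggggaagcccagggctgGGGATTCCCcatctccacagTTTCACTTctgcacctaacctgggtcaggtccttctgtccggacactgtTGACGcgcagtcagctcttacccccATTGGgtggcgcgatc
H2-D1: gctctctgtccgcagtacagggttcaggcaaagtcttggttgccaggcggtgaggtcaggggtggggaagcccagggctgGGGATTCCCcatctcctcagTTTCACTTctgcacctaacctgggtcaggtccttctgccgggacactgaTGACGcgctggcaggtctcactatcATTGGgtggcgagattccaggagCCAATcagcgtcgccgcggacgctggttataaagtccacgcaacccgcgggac
B2m: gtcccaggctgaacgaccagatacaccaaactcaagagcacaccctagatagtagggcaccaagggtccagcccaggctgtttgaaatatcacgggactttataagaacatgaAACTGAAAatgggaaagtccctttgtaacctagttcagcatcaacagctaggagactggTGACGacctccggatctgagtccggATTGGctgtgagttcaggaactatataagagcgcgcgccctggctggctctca
Psmb9-Tap1: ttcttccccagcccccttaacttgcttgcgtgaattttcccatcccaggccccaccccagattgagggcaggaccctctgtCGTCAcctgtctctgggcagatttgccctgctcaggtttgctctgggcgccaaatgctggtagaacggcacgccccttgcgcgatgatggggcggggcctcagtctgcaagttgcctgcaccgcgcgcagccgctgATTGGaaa

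H2-K1 and H2-D1 carry the NF-kB site and the interferon regulatory factor core in the same order. In H2-K1 GGGATTCCC lies at positions -110 to -102 from the RefSeq start and AANNGAAA, on the other strand, at -90 to -83. In H2-D1 they lie at -170 to -162 and at -150 to -143. Moved by this offset of 60 bases, the windows were identical at 166 of 190 positions (87.4%). GGGATTCCC occurred in 84 of the 27025 RefSeq promoters (0.311%), and of the members in these 2. AANNGAAA occurred in 21.6% of promoters, and of the members in H2-K1, H2-D1 and B2m, in B2m at -137 to -130. None of these motifs overlapped another in the printed windows. The short CCAAT and TGACG motifs each occurred in 6 of the 8 members, against 34.5% and 17.9% of all promoters. In the 225 bases between Psmb9 and Tap1 only these 2 had a match, where 32.3% and 16.9% of all windows of that length had one. These matches are letters in a window, and no binding was measured.

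Class I presentation RNA was low in the graft beside the leukocytes of the same tumor. In KO cells named neuroblastoma H2-K1 was at 10.4 CPM, against 1345 CPM in KO tumor leukocytes, and in WT cells named neuroblastoma at 28.2 CPM, against 467 CPM in WT tumor leukocytes. B2m was at 164.6 CPM in these KO graft cells, against 1669 CPM in KO leukocytes, and at 84.6 CPM in WT graft cells, against 770.5 CPM in WT leukocytes. Psmb8 was at 1.85 CPM in KO graft cells, against 367 CPM in KO leukocytes, and at 5.03 CPM in WT graft cells, against 163 CPM in WT leukocytes. In both genotypes, then, the heavy chain, the light chain and the immunoproteasome subunit were all below their leukocyte levels.

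All 10 members were at least 1.5-fold lower in cells named neuroblastoma than in leukocytes of the same library, in KO and in WT tumors, where 33.5% and 30.5% of all genes tested were. At least 4-fold lower were 9 of 10 in each genotype, against 14.1% (KO) and 11.0% (WT) of genes. In cells named fibroblasts 10 of 10 members were 1.5-fold lower in KO (30.9% of genes) and 9 of 9 that could be compared in WT (29.3%), and 9 in KO and 8 in WT were 4-fold lower (12.2% and 9.53%). The members' median log2 ratio of neuroblastoma-named cells over leukocytes was -4.39 in KO and -3.97 in WT tumors, relative to the median gene.

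The distance from leukocytes was unequal among the members. In KO tumors Psmb8 was 227-fold, Psmb9 202-fold, Tap1 153-fold and H2-K1 147-fold lower in neuroblastoma-named cells than in leukocytes. Nlrc5 was 19.1-fold, H2-D1 19.0-fold, B2m 11.6-fold, Tapbp 8.82-fold and Psme2 3.41-fold lower. In WT tumors H2-D1 was 29.6-fold and H2-K1 21.2-fold lower, Psmb8 41.6-fold lower, B2m 11.7-fold lower and Psme2 1.79-fold lower. The pooled leukocytes differed in make-up between the genotypes. M1-named and M2-named macrophages were 203 and 168 of 1237 cells in KO, and 110 and 81 of 321 in WT. Fibroblast markers in the pooled leukocytes summed to 196 CPM in KO and 920 CPM in WT. The part of this in the folds was not tested. The graft and leukocyte levels of Psme2 lay closest in both genotypes, at 76.4 CPM in KO graft cells, against 229 CPM in KO leukocytes, and at 88.5 CPM in WT graft cells, against 123 CPM in WT leukocytes. Most of the last 500 transcript bases of Psme2 (55.2% of 50-base windows) also occur in its copies Psme2b and Gm7928, so its counts are uncertain.

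The low levels were not shared by every gene of the route in KO neuroblastoma-named cells. Of 6 further peptide loading genes 4 were lower than in leukocytes, namely Tapbpl (-3.62), Erap1 (-2.03), calreticulin (Calr, -0.70) and the chaperone Hspa5 (-0.62). Of 8 other proteasome genes 3 were lower, Psme1 (-1.82), Psmb10 (-1.25) and Psme3 (-0.67), and 2 higher, Psmb7 (0.67) and Psma7 (0.62), where 32.2% of all genes were higher. Of the constitutive catalytic subunits Psmb5 (0.35) and Psmb6 (0.50) were called neither. The list median was 0.15, beside -4.39 for the members and 0 for all genes. Of 5 genes of Polycomb repressive complex 2, which silences genes through histone methylation, Jarid2 (-2.02) was lower and Ezh2 (0.88) and Mtf2 (0.64) were higher.

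Of 9 nonclassical class I genes tested 7 were lower, from -2.35 for H2-T22 and -2.58 for H2-M3 to -8.04 for H2-T23, with the H2-Q genes H2-Q4, H2-Q6, H2-Q7 and H2-Q10 between -7.97 and -7.18. Of 16 genes of interferon gamma reception and regulation 14 were lower. They included the receptor chains Ifngr1 (-3.13) and Ifngr2 (-2.23) and the kinases Jak1 (-2.42) and Jak2 (-2.79). Of the interferon regulatory factors, Irf1 (-1.28), Irf2 (-2.0), Irf8 (-7.46) and Irf9 (-2.54) were lower, as were Socs1 (-1.82), Rfx5 (-0.71), Rfxank (-1.48), Ciita (-8.81) and Nfkb1 (-2.24). In WT neuroblastoma-named cells 12 of these 16 were lower and Rfx5 (1.63) was higher, with the receptor chains at -2.27 for Ifngr1 and -2.41 for Ifngr2.

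**Figure D1:**
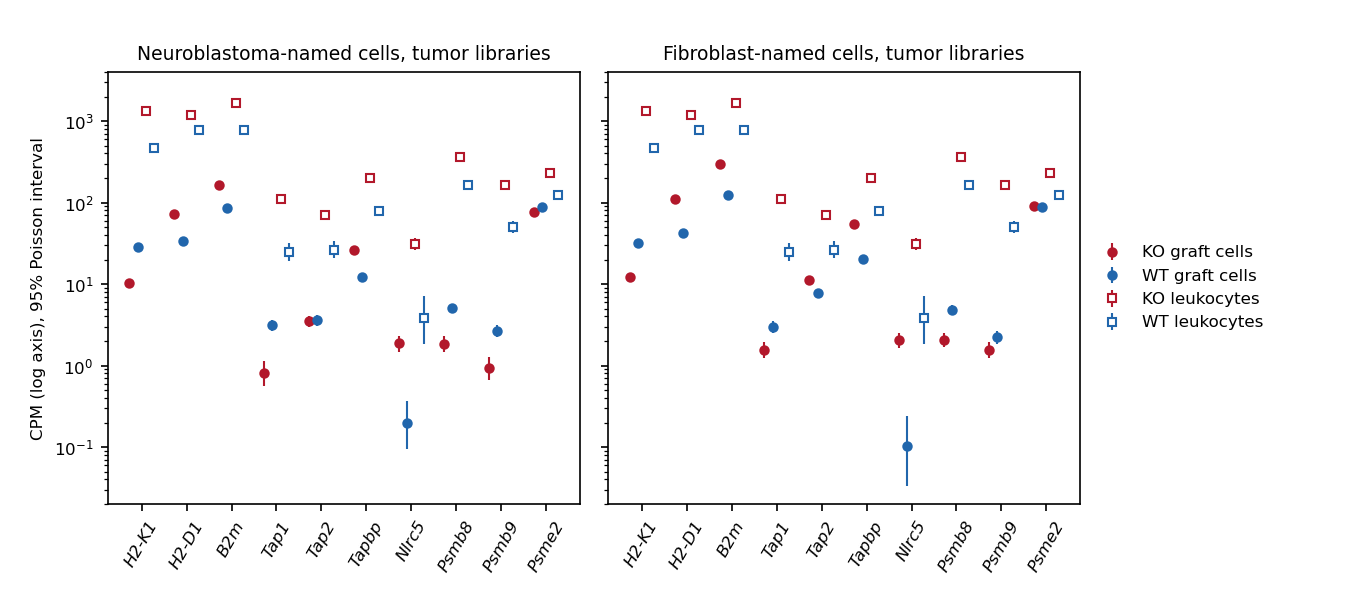
Levels of the 10 members in tumor libraries (CPM, logarithmic axis) in neuroblastoma-named (left) and fibroblast-named (right) cells beside the pooled leukocyte classes, KO left of WT, graft cells as filled circles and leukocytes as open squares, with exact 95% Poisson intervals. H2-K1 sits at 10.4 CPM in KO and 28.2 CPM in WT neuroblastoma-named cells, while H2-D1 sits at 71.5 CPM in KO and 33.5 CPM in WT.

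In the graft, KO and WT differed in both directions. Relative to WT, KO neuroblastoma-named cells had more H2-D1, B2m, Tapbp and Nlrc5 RNA and less H2-K1, Tap1, Psmb8 and Psmb9 RNA. Thus 4 of 10 members were called higher (16.4% of the 14089 genes tested) and 4 lower (16.2%), and Tap2 and Psme2 were called neither. KO fibroblast-named cells gave the same 4 higher (19.3% of 14460 genes) and the same 4 lower (16.6%). The members' median log2 ratio was -0.34 in neuroblastoma-named and -0.02 in fibroblast-named cells, and that of all genes is 0 by the centring.

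The classical heavy chains differed in opposite directions. H2-K1 had 434 UMIs in KO and 1420 UMIs in WT neuroblastoma-named cells, or 10.4 CPM (9.44 to 11.4) in KO and 28.2 CPM (26.8 to 29.7) in WT. Its log2 ratio was -1.65 (-1.81 to -1.49), 3.13-fold lower in KO. H2-D1 had 2984 UMIs in KO and 1685 UMIs in WT, or 71.5 CPM (69.0 to 74.1) in KO and 33.5 CPM (31.9 to 35.1) in WT, a log2 ratio of 0.89 (0.80 to 0.97). In fibroblast-named cells H2-K1 was at 12.3 CPM in KO and 31.7 CPM in WT (log2 ratio -1.67, -1.81 to -1.53), and H2-D1 at 111.6 CPM in KO and 42.2 CPM in WT (1.10, 1.02 to 1.17). Neither pair of intervals overlapped in either class. Only 2 of 451 windows of 50 bases at the 3' end of H2-K1 recur in H2-D1, and 43 windows of H2-D1 recur in other genes, so the 3' tags of the 2 genes can mostly be told apart.

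A UMI of H2-K1 was seen in 10.3% of KO and 47.3% of WT neuroblastoma-named cells, whose median depths were 31582 UMIs in KO and 27927 in WT. After every cell was thinned to 2000 UMIs the shares were 1.71% in KO and 5.47% in WT for H2-K1, and 10.4% in KO and 5.17% in WT for H2-D1. Both genes thus kept their direction at equal depth. No cell type of the series is known to lack class I RNA, so no background share could be set beside these.

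B2m, the light chain, was at 164.6 CPM in KO and 84.6 CPM in WT neuroblastoma-named cells (log2 ratio 0.75, 0.70 to 0.81) and at 301 CPM in KO and 125 CPM in WT fibroblast-named cells (0.97, 0.93 to 1.01). Its direction was that of H2-D1 and the opposite of that of H2-K1. Tapbp, the tapasin gene, was at 25.9 CPM in KO and 12.3 CPM in WT neuroblastoma-named cells (0.87, 0.73 to 1.02) and at 54.3 CPM in KO and 20.3 CPM in WT fibroblast-named cells (1.12, 1.01 to 1.22).

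The transporter subunits differed from each other. Tap1 had 34 UMIs in KO and 158 UMIs in WT neuroblastoma-named cells, or 0.815 CPM in KO and 3.14 CPM in WT (log2 ratio -2.15, -2.73 to -1.61). In fibroblast-named cells it was at 1.57 CPM in KO and 2.95 CPM in WT (-1.22, -1.64 to -0.80). Tap2 was at 3.47 CPM in KO and 3.60 CPM in WT neuroblastoma-named cells (-0.26, -0.58 to 0.07), and at 11.1 CPM in KO and 7.69 CPM in WT fibroblast-named cells (0.22, 0.03 to 0.42). Tap2 was therefore under the 1.5-fold rule in both, with ratios of opposite sign.

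The immunoproteasome subunits were lower in KO. Psmb8 had 77 UMIs in KO and 253 UMIs in WT neuroblastoma-named cells, or 1.85 CPM in KO and 5.03 CPM in WT (log2 ratio -1.65, -2.04 to -1.28), and was at 2.08 CPM in KO and 4.86 CPM in WT fibroblast-named cells (-1.53, -1.89 to -1.18). Psmb9 was at 0.935 CPM in KO and 2.68 CPM in WT neuroblastoma-named cells (-1.73, -2.28 to -1.20), and at 1.57 CPM in KO and 2.22 CPM in WT fibroblast-named cells (-0.81, -1.25 to -0.37). Psme2 was at 76.4 CPM in KO and 88.5 CPM in WT neuroblastoma-named cells (-0.42, -0.48 to -0.35), and at 91.4 CPM in KO and 89.1 CPM in WT fibroblast-named cells (-0.27, -0.33 to -0.21), within 1.5-fold in both.

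Nlrc5, the class I transactivator, was higher in KO, like H2-D1 and B2m and unlike H2-K1, Tap1 and Psmb9. It had 78 UMIs in KO and 10 UMIs in WT neuroblastoma-named cells, or 1.87 CPM in KO and 0.199 CPM in WT (log2 ratio 3.03, 2.07 to 4.14). In fibroblast-named cells it had 96 UMIs in KO and 5 UMIs in WT, or 2.03 CPM in KO and 0.104 CPM in WT (3.99, 2.72 to 5.64). These ratios rest on few WT counts. 9330175E14Rik, a gene on the opposite strand, overlaps Nlrc5 in the annotation, and how the counting treated strand is not given in the sources used here.

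**Figure D2:**
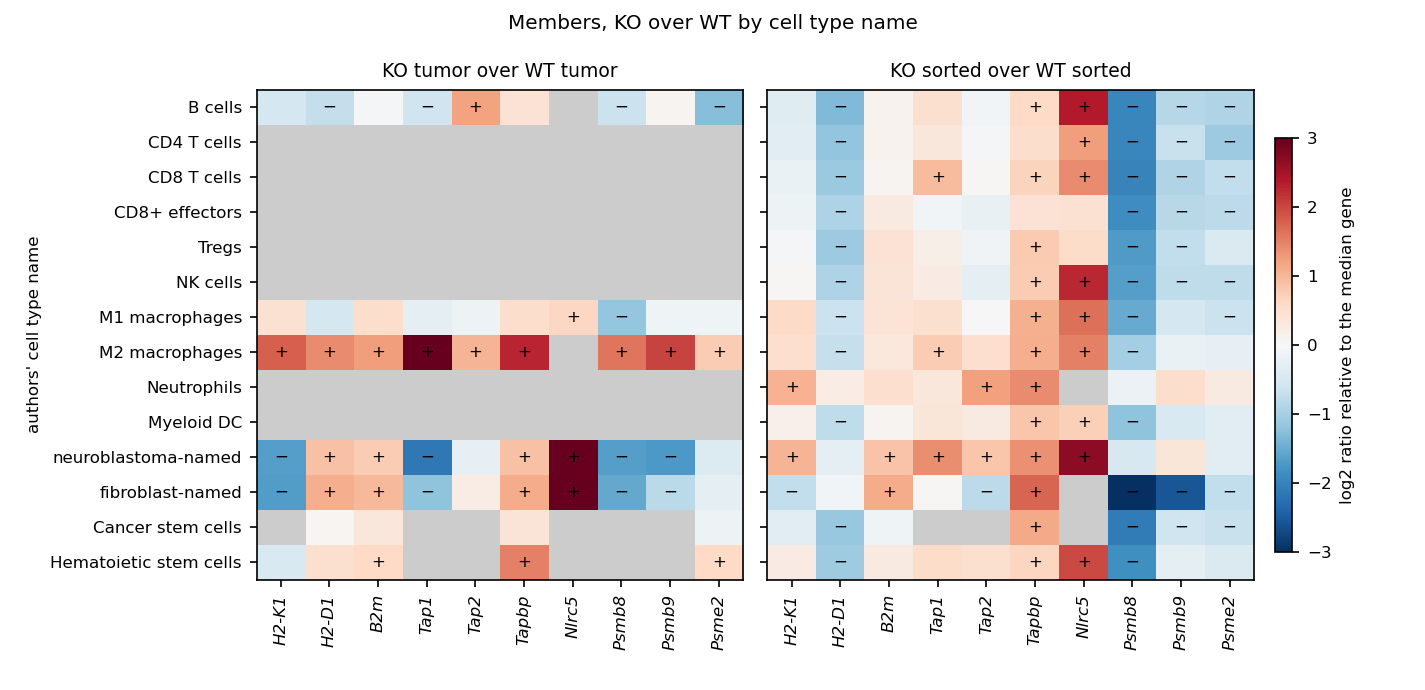
Log2 ratio of KO over WT relative to the median gene (colour) for each member (columns) and cell type name (rows) in the tumor and the sorted libraries, with plus and minus marking at least 1.5-fold and grey where a class held under 50 cells in a library or the member under 20 UMIs. In the 2 graft names of the tumor libraries H2-K1 stands at -1.65 and -1.67 and H2-D1 at 0.89 and 1.10.

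RNA of leukocytes was also read in graft cells. The 12 leukocyte markers summed to 39.0 CPM in KO and 28.2 CPM in WT neuroblastoma-named cells, and to 51.4 CPM in KO and 26.7 CPM in WT fibroblast-named cells, with none of the 12 at 0. The leukocytes themselves stood at 9378 CPM in KO and 12176 CPM in WT tumors, so the graft cells held 0.416% of that level in KO and 0.232% in WT neuroblastoma-named cells. At that content the leukocytes' own levels would amount to 53.8% of the H2-K1, 55.9% of the Tap1, 82.8% of the Psmb8 and 73.7% of the Psmb9 measured in KO neuroblastoma-named cells. The same figures in WT were 3.84% for H2-K1, 1.84% for Tap1, 7.53% for Psmb8 and 4.32% for Psmb9. For H2-D1, B2m, Tapbp and Nlrc5 they were 6.96%, 4.22%, 3.22% and 7.0% in KO. In KO fibroblast-named cells the figure for Psmb8 was 96.8%. In other KO tumor cells the figure could pass the measured level, on few UMIs. It was 210% for H2-K1 in cells named cancer stem cells and 224% for Psmb9 in cells named stem cells. In the latter it gave 0.613 CPM of Psmb8, where 0 UMIs were counted. These percentages are therefore rough. The leukocyte marker content was higher in KO, and H2-K1, Tap1, Psmb8 and Psmb9 were lower there. The part of leukocyte RNA in these ratios was not tested.

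**Figure D3:**
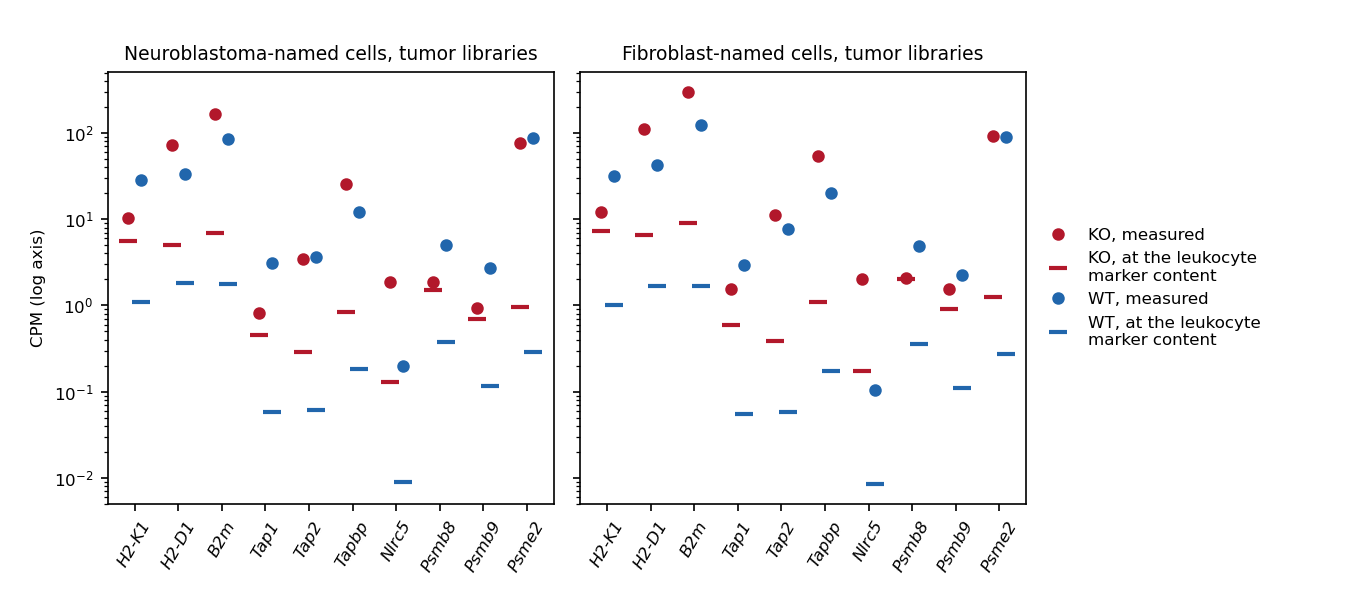
Measured level of each member in graft cells of the tumor libraries (circles, CPM, logarithmic axis) and the level that leukocyte RNA would give at the content of the 12 leukocyte markers (bars), KO left of WT. In KO neuroblastoma-named cells the bar reaches 82.8% of the circle for Psmb8 and 53.8% for H2-K1, against 7.53% and 3.84% in WT.

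The 4 differences towards lower levels in KO were larger among graft cells with at most 1 leukocyte marker UMI, which were 87.9% of KO and 94.5% of WT neuroblastoma-named cells. There H2-K1 was at 5.61 CPM in KO and 28.0 CPM in WT (log2 ratio -2.52), Tap1 at 0.553 CPM in KO and 3.28 CPM in WT (-2.77), and Psmb8 at 0.359 CPM in KO and 4.92 CPM in WT (-3.97). Psmb9 was at 0.387 CPM in KO and 2.53 CPM in WT (-2.91). The 4 members called higher kept close to their values, with log2 ratios of 0.91 for H2-D1, 0.76 for B2m, 0.90 for Tapbp and 3.11 for Nlrc5. In fibroblast-named cells chosen the same way (92.7% of KO, 96.2% of WT) H2-K1 was at 6.02 CPM in KO and 31.6 CPM in WT (-2.68), and Psmb8 at 0.439 CPM in KO and 4.80 CPM in WT (-3.74). The cells were chosen by markers whose levels run with the members over cell types (Ptprc with H2-K1, Pearson r 0.958). What this choice does to the ratios was not tested.

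Cells with a UMI of Tap1, Psmb8 or Psmb9 were few in KO. They were 52 of the KO neuroblastoma-named cells (4.05%) and 395 of the WT ones (23.7%). The 52 KO cells had H2-K1 at 99.8 CPM and leukocyte markers at 435 CPM, against 6.34 CPM and 21.0 CPM in the other KO cells. The 395 WT cells had H2-K1 at 40.4 CPM and leukocyte markers at 79.5 CPM, against 24.4 CPM and 12.1 CPM in the other WT cells. In both genotypes the cells with such a UMI also held more leukocyte marker RNA, by a wider margin in KO. In fibroblast-named cells they were 4.73% of KO and 15.3% of WT cells.

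A further group of KO tumor cells, named stem cells by the authors, had less H2-K1 and more H2-D1 RNA than the 2 graft names of that library. These 218 cells had 22 UMIs of H2-K1 (2.71 CPM, 1.70 to 4.11) and 1548 of H2-D1 (191 CPM, 181 to 200.6), with B2m at 148 CPM. Tap1 and Psmb8 had 0 UMIs each, which allows up to 0.370 CPM (3 counts, the one-sided 95% limit of a count of 0), and Psmb9 had 1 UMI. Their leukocyte markers summed to 15.7 CPM and their neuroblastoma markers to 156 CPM. The WT tumor library held 8 cells of this name, too few to compare. Cells named cancer stem cells (461 KO, 314 WT) had H2-K1 at 3.82 CPM in KO and 9.30 CPM in WT, from 6 UMIs in KO and 8 in WT, too few to call. Their H2-D1 was at 51.6 CPM in KO and 38.4 CPM in WT, within 1.5-fold relative to the median gene.

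The subunit pairs of the proteasome were described by the share of a pair's UMIs that came from the immunoproteasome member, a measure of RNA and not of assembled proteasomes. Psmb8 takes the place of Psmb5, Psmb9 that of Psmb6 and Psmb10 that of Psmb7. The Psmb8 share was 0.832% (0.657 to 1.04, Clopper-Pearson) in KO and 1.57% (1.39 to 1.78) in WT neuroblastoma-named cells, and 70.8% in KO and 49.0% in WT leukocytes of the tumor libraries. The Psmb9 share was 0.261% in KO and 0.824% in WT neuroblastoma-named cells, and 42.7% in KO and 12.5% in WT tumor leukocytes. Both shares were lower in graft cells than in the leukocytes of the same library. The make-up of the pooled leukocytes differed between the genotypes, and its part in their shares was not tested.

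Psmb10 did not follow its partners. Its share was 25.8% in KO and 18.3% in WT neuroblastoma-named cells, 31.8% in KO and 24.2% in WT fibroblast-named cells, and 56.7% in KO and 37.3% in WT tumor leukocytes. In CPM Psmb10 was at 60.1 in KO and 36.7 in WT neuroblastoma-named cells (log2 ratio 0.51), under the 1.5-fold rule. Psmb5, the constitutive partner of Psmb8, was itself lower in KO, at 219.8 CPM against 315 CPM in WT neuroblastoma-named cells (-0.72) and at 194 CPM against 267 CPM in WT fibroblast-named cells (-0.76). The log2 ratios of Psmb6 (-0.06 and -0.18) and Psmb7 (-0.13 and -0.20) were small in both names. The Psmb8 share was thus lower in KO although its partner was lower too.

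**Figure D4:**
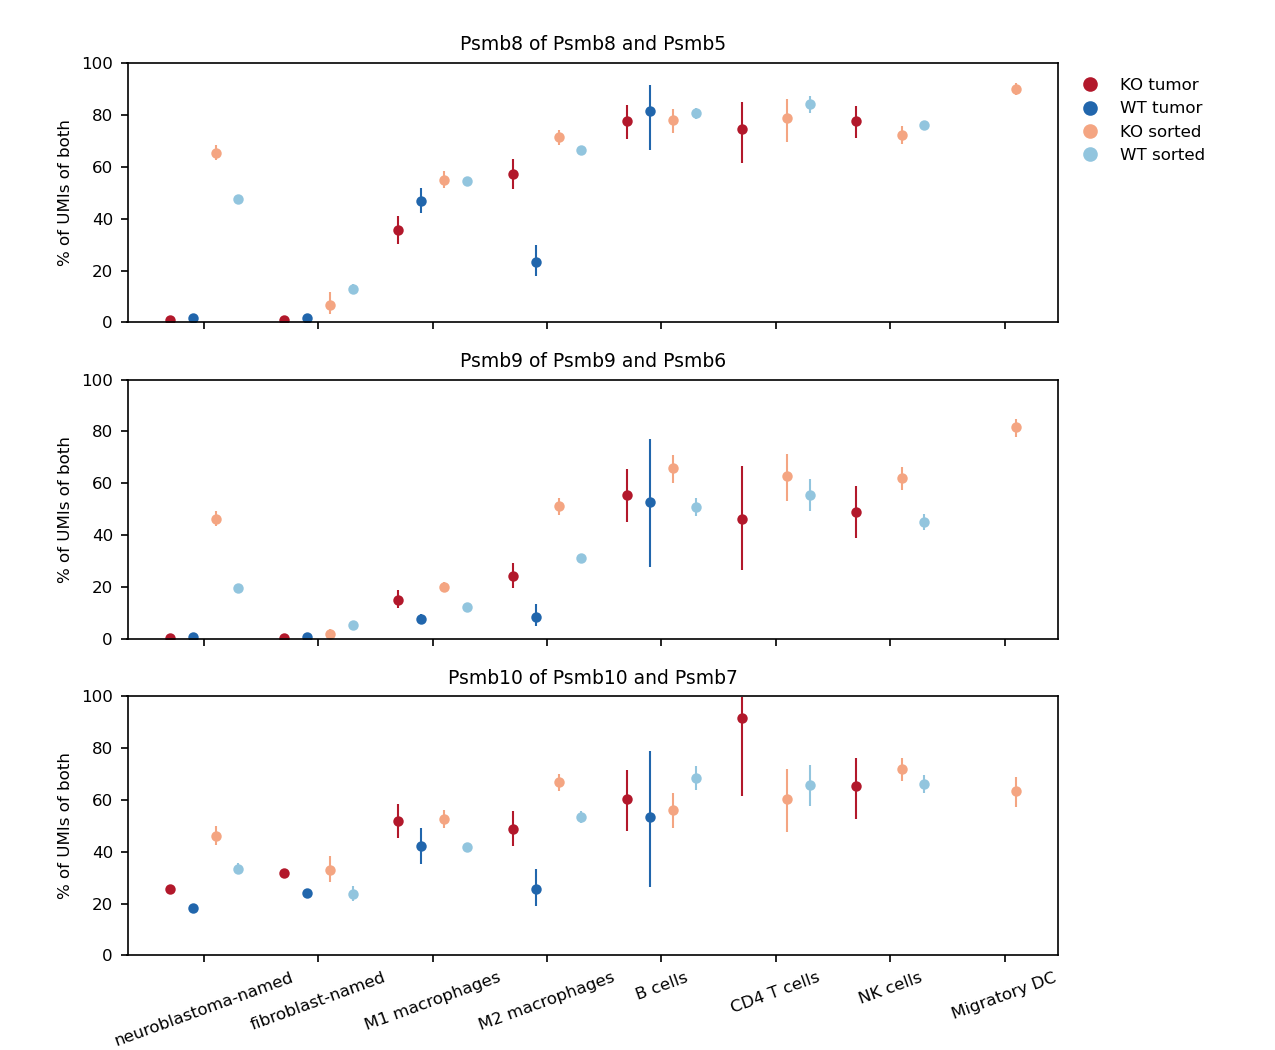
Share (percent, with exact 95% Clopper-Pearson intervals) of the UMIs of each subunit pair that came from the immunoproteasome member Psmb8, Psmb9 or Psmb10, by cell type name, KO left of WT within each preparation. In the tumor libraries the Psmb8 share is 0.832% in KO and 1.57% in WT neuroblastoma-named cells. It is 35.4% in KO and 47.0% in WT M1-named macrophages, and 57.3% in KO and 23.5% in WT M2-named macrophages.

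Other genes of the route in the graft were taken from lists and described by counts beside the backgrounds above. Of 6 peptide loading genes 0 were called in neuroblastoma-named cells, and 2 were higher and 0 lower in KO fibroblast-named cells. These were the trimming aminopeptidase Erap1, at 11.4 CPM in KO and 5.44 CPM in WT (log2 ratio 0.76), and the tapasin relative Tapbpl, at 4.07 CPM in KO and 2.14 CPM in WT (0.62). Of 8 other proteasome genes 2 were lower and 0 higher in KO neuroblastoma-named cells, namely Psmb5 and the PA28 subunit Psme1 (109 CPM in KO, 149 CPM in WT, -0.67). Only Psmb5 was lower in KO fibroblast-named cells. The list medians were 0.15 for peptide loading and -0.09 for the proteasome in neuroblastoma-named cells, against 0 for all genes.

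Among nonclassical class I genes 2 were higher and 2 lower of 8 tested in each graft name. H2-Q4 was at 0.575 CPM in KO and 9.17 CPM in WT neuroblastoma-named cells (log2 ratio -4.20), and H2-T23, whose product presents leader peptides to NK cell receptors, at 0.887 CPM in KO and 3.88 CPM in WT (-2.33). H2-Q6 had 22 UMIs in KO and 2 in WT, and H2-Q7 59 in KO and 5 in WT. The H2-Q genes are near-identical copies that share reads, so how counts fall among them is uncertain.

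Of 15 genes of interferon gamma reception and regulation tested in neuroblastoma-named cells 2 were higher in KO and 0 lower. Irf1, a transcription factor induced by interferon gamma, was at 27.8 CPM in KO and 10.5 CPM in WT (log2 ratio 1.19), and Irf8, a factor of myeloid and lymphoid cells, had 79 UMIs in KO and 7 in WT (3.56). In fibroblast-named cells 4 of 16 were higher and 0 lower: Irf1 (40.5 CPM in KO, 13.1 CPM in WT, 1.33), Irf8 (1.97), the receptor kinase Jak2 (23.3 CPM in KO, 12.3 CPM in WT, 0.62) and the class II transactivator Ciita (32 UMIs in KO, 4 in WT). Irf8 and Ciita are known from leukocytes, whose markers were also higher in KO graft cells (39.0 CPM in KO and 28.2 CPM in WT neuroblastoma-named cells), and the part of that RNA was not tested. The receptor gene Ifngr1 was within 1.5-fold (-0.26 and -0.16). No gene of Polycomb repressive complex 2 was called in either name among 5, with Ezh2, its methyltransferase, at 111 CPM in KO and 106 CPM in WT neuroblastoma-named cells (-0.14). Irf1 RNA was higher in KO grafts, as was that of H2-D1 and B2m, while Tap1 and Psmb9, which it is known to activate, were lower there. The part of Irf1 in these levels was not tested.

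Macrophages, among the cells known to carry CD200R, were compared in the sorted libraries, where more of them were captured. In M1-named macrophages (350 KO, 950 WT cells) 2 members were higher in KO (21.4% of genes tested) and 3 lower (23.6%). Tapbp was at 267 CPM in KO and 103 CPM in WT (log2 ratio 1.07) and Nlrc5 at 19.9 CPM in KO and 5.11 CPM in WT (1.66). Psmb8 was at 102 CPM in KO and 234 CPM in WT (-1.50), H2-D1 at 1408 CPM in KO and 1786 CPM in WT (-0.65), and Psme2 at 133 CPM in KO and 169 CPM in WT (-0.65). These counts are near the share of all genes that differed as much, and without the centring 5 were higher and 1 lower.

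In M2-named macrophages (411 KO, 627 WT cells) 3 members were higher in KO (19.2% of genes) and 2 lower (22.2%). Tap1 was at 148 CPM in KO and 67.2 CPM in WT (log2 ratio 0.76), Tapbp at 338 CPM in KO and 123 CPM in WT (1.08), and Nlrc5 at 40.1 CPM in KO and 10.7 CPM in WT (1.52). H2-D1 was at 1269 CPM in KO and 1569 CPM in WT (-0.69) and Psmb8 at 202 CPM in KO and 315 CPM in WT (-1.02). Here too the counts stand near the background, and without the centring 6 were higher and 1 lower. H2-K1 lay under the 1.5-fold rule in M1-named (0.58) and M2-named (0.50) macrophages, with 1599 CPM in KO and 866 CPM in WT M1-named cells.

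Of 8 other proteasome genes 5 were lower and 0 higher in KO M1-named cells: Psmb5 (-1.52), Psmb6 (-1.36), Psmb7 (-0.96), Psma7 (-0.71) and Psmd4 (-0.68). In M2-named cells Psmb5 (-1.36), Psmb6 (-1.40) and Psmb7 (-0.76) were lower and the activator subunit Psme3 (1.06) was higher. These counts are of the sorted libraries alone. Of the peptide loading genes 0 of 6 were called in M1-named cells, and in M2-named cells Erap1 (0.64) was higher and Hspa5 (-0.74) lower.

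Of 16 genes of interferon gamma reception and regulation 7 were higher and 1 lower in KO M1-named macrophages, and 6 higher and 2 lower in M2-named ones. Among them Jak2 (1.62 in M1-named, 1.34 in M2-named), the promoter-binding factor Rfx5 (1.02 and 1.64) and Nfkb1 (0.66 and 1.10) were higher in both, and Rfxap (-0.93 and -1.09) lower in both. Irf1 (1.30), Irf9 (0.62) and Socs1 (1.05) were also higher in M1-named cells, and Ciita (1.26) and Rela (0.66) in M2-named cells, where Rfxank (-0.68) was lower. Of 10 nonclassical genes H2-T24 (1.51) and H2-Q6 (0.69) were higher and H2-Q10 (-1.21) lower in M1-named cells, and H2-Q6 (0.86) was higher and H2-Q10 (-1.57), Cd1d1 (-0.94) and Mr1 (-1.03) lower in M2-named cells. The Polycomb genes Suz12 (0.70), Jarid2 (1.04) and Mtf2 (0.68) were higher in M1-named cells and 0 of 5 were called in M2-named cells.

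With both Psmb8 and Psmb5 lower in KO, the Psmb8 share was 55.0% in KO and 54.7% in WT M1-named cells, and 71.3% in KO and 66.3% in WT M2-named cells. The Psmb9 share was 20.1% in KO and 12.3% in WT M1-named cells, and 51.1% in KO and 31.2% in WT M2-named cells.

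The tumor libraries gave other values for the same names. In M1-named macrophages (203 KO, 110 WT cells) Nlrc5 was higher in KO (log2 ratio 0.63, -0.80 to 2.20; 19.3% of genes were higher) and Psmb8 lower (99.9 CPM in KO, 188 CPM in WT, -1.16; 14.5% of genes were lower). In M2-named macrophages (168 KO, 81 WT cells) all 9 members that could be compared were higher in KO (25.4% of genes) and 0 lower (23% of genes), H2-K1 at 698 CPM in KO and 152 CPM in WT (1.78) and Tap1 at 62.6 CPM in KO and 5.4 CPM in WT (3.12). In these M2-named cells macrophage markers summed to 5689 CPM in KO and 1998 CPM in WT, and fibroblast markers to 388 CPM in KO and 1396 CPM in WT. The part of this difference in cell content in the members' ratios was not tested. Of the 8 other proteasome genes 0 were higher and 1 lower in M1-named tumor cells, and 3 higher and 0 lower in M2-named ones.

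Across 10 leukocyte classes of the sorted libraries the median gene, which the ratios are taken against, lay at a log2 ratio of 0.26 to 0.57 in KO over WT. Relative to it Psmb8 was called lower in KO in 9 of 10 classes, with log2 ratios over the 10 between -2.0 and -0.18, and H2-D1 in 9 of 10, all but neutrophils (0.22). Of all genes 27.4% were called lower in B cells, 28.8% in CD4 T cells, 26.6% in CD8 T cells, 25.5% in CD8+ effectors, 25.3% in regulatory T cells, 27.7% in NK cells, 30.3% in neutrophils and 17.3% in myeloid dendritic cells, besides the macrophages above. The shares called higher were 24.7% in B cells, 25.4% in CD4 and in regulatory T cells, 23.7% in CD8 T cells, 23.9% in CD8+ effectors, 24.6% in NK cells, 29.5% in neutrophils and 17.3% in myeloid dendritic cells. Tapbp was higher in 8 of 10 classes (0.44 to 1.42) and Nlrc5 in 7 of 9. Tap1 was higher in 2 classes and Tap2 in 1, and Psmb9 and Psme2 were each lower in 6. B2m was above 0 in all 10 and called in none (0.08 to 0.50), and H2-K1 was called in neutrophils alone (1.03). Without the centring, where 40.8% of all genes over the 10 classes were at least 1.5-fold higher and 12.9% lower, Psmb8 was lower in 9 of 10 again, Tapbp was higher in 10 of 10 and Nlrc5 in 9 of 9. The counts of the other members moved with the scaling. H2-D1 was then lower in 3 classes and higher in 1, Psmb9 and Psme2 were each lower in 0 and higher in 1, B2m was higher in 8 (0.35 to 1.01), Tap1 in 9, and H2-K1 and Tap2 in 3 each. H2-D1 was thus below 0 in 9 of 10 classes with either scaling, and past 1.5-fold in most of them with the centring alone.

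With all leukocyte classes pooled, 8 members were higher (22% of genes) and 0 lower (17.1%) in KO tumor leukocytes, and 3 higher (24.5%) and 2 lower (26.3%) in KO sorted leukocytes. The mix of classes differed between the genotypes in both preparations. Within single classes of the tumor libraries the members' median log2 ratio was -0.53 in B cells and -0.13 in M1-named macrophages. It was 1.61 in M2-named macrophages, against 0 for all genes by the centring. Without the centring the pooled counts were 10 higher and 0 lower in tumor and 6 higher and 1 lower in sorted leukocytes.

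Psmb8 also differed between the preparations of the same genotype. In B cells it was at 117 CPM in KO sorted cells, against 317 CPM in KO tumor cells, and at 335 CPM in WT sorted cells, against 392 CPM in WT tumor cells. In KO it was lower in sorted than in tumor cells in 6 of 8 classes, and about equal in M1-named (log2 ratio 0.02) and M2-named (-0.02) macrophages. In WT its log2 ratio of sorted over tumor cells ran from -0.46 to 2.56 over 3 classes, highest in M2-named macrophages. The share of genes lower in KO sorted cells was 21.5% in B cells and M1-named macrophages, 22.3% in CD4 T cells, 21.9% in CD8 T cells, 23.3% in CD8+ effectors, 22.1% in regulatory T cells, 19.6% in NK cells and 24.4% in M2-named macrophages. Of the 8 other proteasome genes, 6 were lower in KO than in WT sorted B cells, NK cells and regulatory T cells and 7 in CD4 T cells. Without the centring 3 were lower in B cells and 2 in CD4 T cells, so these counts depend on the scaling. In KO sorted over KO tumor cells 6 of 8 were lower in B cells and 5 of 8 in M2-named macrophages. Ribosomal protein RNA took 19.1% of UMIs in KO sorted B cells, against 30.9% in WT sorted, 27.1% in KO tumor and 30.0% in WT tumor B cells. That share was lower in KO sorted than in WT sorted cells in 9 of 10 leukocyte classes, by little in M2-named macrophages (15.2% in KO, 16.0% in WT), and higher in neutrophils (5.29% in KO, 4.28% in WT). It was lower in KO sorted than in KO tumor cells in 8 of 8 classes. In WT it was 14.4% in sorted and 17.3% in tumor M1-named macrophages, and 16.0% in sorted and 34.4% in tumor M2-named ones. The part of this in the Psmb8 and proteasome values was not tested.

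The same members were ordered by cell type in each library, over the classes with at least 50 cells. In the KO tumor library H2-K1 was highest in regulatory T cells (3580 CPM), then in CD8+ effectors (2853 CPM) and NK cells (2675 CPM), whose intervals overlapped. CD4 T cells (2089 CPM) came next, then CD8 T cells (1570 CPM) and B cells (1349 CPM), which overlapped, then M1-named (853 CPM) and M2-named (698 CPM) macrophages. A wide gap followed. Cells named hematopoietic stem cells stood at 33.3 CPM, above fibroblast-named (12.3 CPM) and neuroblastoma-named cells (10.4 CPM), which overlapped, and above cancer stem (3.82 CPM) and stem cells (2.71 CPM), which also overlapped. In that library regulatory T cells were also highest for H2-D1 (2423 CPM), B2m (3007 CPM), Tap1 (327 CPM), Psmb8 (752 CPM), Psmb9 (292 CPM) and Psme2 (397 CPM), of which the last 3 overlapped the next class. Among classes under 50 cells, CD11c+ resident dendritic cells (20 cells) had Psmb8 at 1401 CPM and Psmb9 at 829 CPM, and migratory dendritic cells (32 cells) had them at 965 CPM and 451 CPM.

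In the sorted libraries lymphocytes and dendritic cells held the highest levels. H2-K1 was highest in regulatory T cells, at 4247 CPM in KO and 3277 CPM in WT, where CD8+ effectors (3012 CPM) overlapped. In the KO sorted library CD11c+ resident dendritic cells were highest for Tap1 (424 CPM), Tap2 (266 CPM) and Psmb8 (723 CPM), and migratory dendritic cells, which carry antigen to lymph nodes, for H2-D1 (1967 CPM), B2m (4746 CPM), Tapbp (556 CPM) and Psme2 (796 CPM). In the WT sorted library CD8+ effectors led for Nlrc5 (87.0 CPM).

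**Figure D5:**
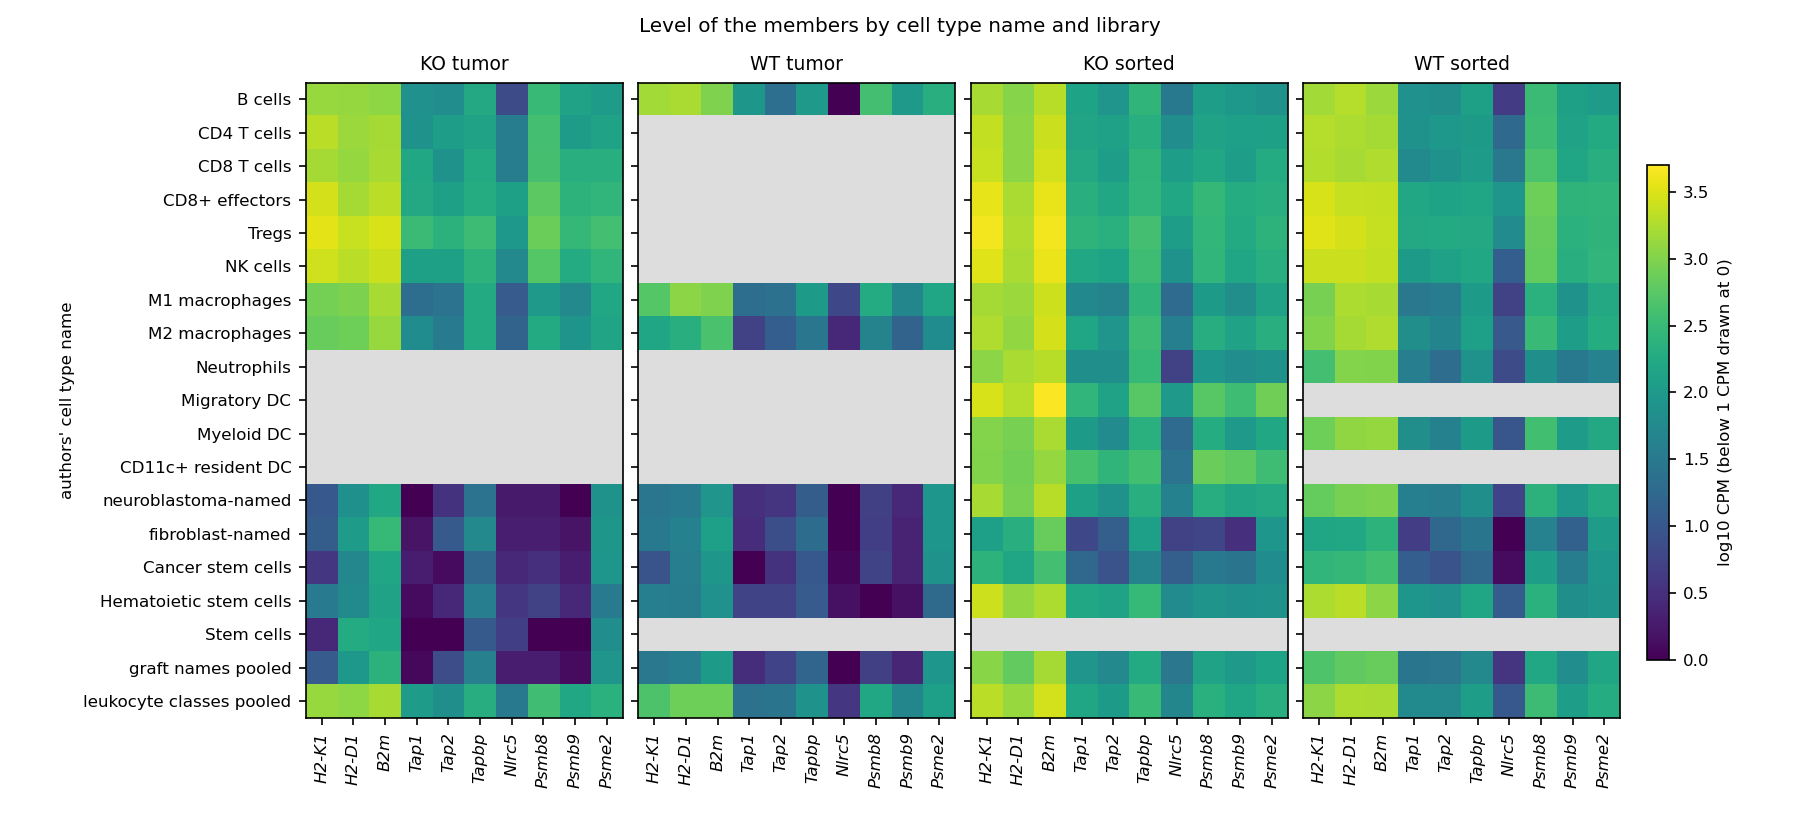
Levels of the 10 members (colour, log10 CPM, with values under 1 CPM drawn at 0) by cell type and library, with grey where a class held under 50 cells. The graft names of the tumor libraries form the low rows, with H2-K1 at 10.4 CPM in KO and 28.2 CPM in WT neuroblastoma-named cells, against 3580 CPM in KO tumor regulatory T cells.

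Cells with graft names in the sorted libraries were left out of the graft. Those named neuroblastoma carried leukocyte markers at 5872 CPM in KO and 9266 CPM in WT and H2-K1 at 1633 CPM in KO and 666 CPM in WT, so their name goes against their markers. Fibroblast-named sorted cells (78 KO, 164 WT) had leukocyte markers at 217 CPM in KO and 1106 CPM in WT. In them 2 of 9 members were higher in KO (25.4% of genes) and 5 lower (27.6%). Without the centring 2 were higher and 2 lower, and H2-K1, Tap2 and Psme2 were then not called.

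With the centring, H2-K1, Psmb8, Psmb9, Psme2, B2m and Tapbp had the sign of the fibroblast-named tumor cells. H2-D1, Tap1 and Tap2 had the opposite sign. H2-K1 was at 120.9 CPM in KO and 152.5 CPM in WT (log2 ratio -0.75), Psmb8 at 5.86 CPM in KO and 44.3 CPM in WT (-3.33) and Psmb9 at 3.20 CPM in KO and 14.3 CPM in WT (-2.57). B2m was at 700.1 CPM in KO and 244.5 CPM in WT (1.11) and Tapbp at 122.0 CPM in KO and 27.2 CPM in WT (1.76). H2-D1 (-0.07) and Tap1 (0.04) were called neither, Tap2 (-0.79) and Psme2 (-0.74) were lower, and Nlrc5 had too few UMIs. The part of the leukocyte markers in these values was not tested.

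Over 50 combinations of cell type and library, the genes whose levels ran most like the members' mean included known leukocyte genes. The highest Pearson correlations among 11303 genes were those of Arhgap30 (0.963), Dock8 (0.962), H2-T23 (0.958), Sp110 (0.956) and Cnn2 (0.954), followed by Celf2 (0.950), Dock2 (0.949), Ptprc (0.948), Dock10 (0.948) and Coro1a (0.946). Ptprc encodes CD45, the marker of the sort. The most alike gene was Ptprc for H2-K1 (0.958), Gpsm3 for H2-D1 (0.952), Ppp1r18 for B2m (0.956), Dock10 for Tap1 (0.969), Gbp4 for Nlrc5 (0.914) and Psme1 for Psme2 (0.927). For Tap2 it was Tap1 (0.957), for Tapbp B2m (0.939) and for Psmb8 and Psmb9 it was the other one of this pair (0.966). The points share libraries and fall into graft and leukocyte classes, so these values describe that contrast above all.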

How the data were processed

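Per the labels' protocols, libraries of whole tumors and of sorted leukocytes were made with a 3' single-cell kit of 10x Genomics. Per the submitters' processing notes, Cell Ranger 6.0.1, Seurat 4.0.5 and build mm10 were used, without the role of each. The authors deposited natural log values, ln(1 + 10000 x UMIs / total UMIs of the cell), and total counts and type names per cell. UMI counts were recovered from these: all 60957742 nonzero values were whole within 0.01, and sums matched the deposited totals in all 20376 cells. Cell filters of the authors are not given in the sources used here.

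For each gene UMIs were added up over the cells of a class and library. Library totals were 103877007 (KO tumor), 103277632 (WT tumor), 29200338 (KO sorted) and 62509573 (WT sorted). The count model planned for replicated samples was not used, because each group is 1 library. Ratios were centred on the median gene, which lay at a log2 ratio of 0.21 in neuroblastoma-named and 0.30 in fibroblast-named tumor cells. The 95% intervals are exact Poisson ones for CPM, conditional binomial ones for ratios and Clopper-Pearson ones for shares, and cover counting error only. Classes needed 50 cells in both libraries, and doublets were left in, except in 1 alternative. Backgrounds cover all genes with at least 20 UMIs. The text names all 10 members, the other listed genes past 1.5-fold between genotypes in graft cells and sorted macrophages and between KO neuroblastoma-named cells and leukocytes (other comparisons by counts, and 1 listed gene not reported here), 4 proteasome subunits (Psmb5, Psmb6, Psmb7, Psmb10) and the genes most like the members (Pearson r of log CPM with a pseudocount of 10 CPM, genes with at least 1000 UMIs). Members and lists were chosen with earlier results of these data known. Positions are from GENCODE annotation of mm10. Python 3.11.15 with numpy 2.4.6, pandas 2.3.3, scipy 1.17.1 and matplotlib 3.10.9 was used, and the ratio code was tested on simulated data. Alternatives varied scaling, filters, depth, doublets, leukocyte RNA and fold.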

Additional observations from a re-analysis of the deposited data

Results flagged for a closer look

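Each difference here is a member whose KO over WT log2 ratio had opposite signs in 2 cell types or 2 preparations, each on a single library per genotype, and no difference was tested. Between sorted and tumor M2-named macrophages, H2-D1 stood at 1.41 in the tumor and -0.69 in the sorted libraries (a gap of 2.09) and Psmb8 at 1.61 in the tumor and -1.02 in the sorted libraries (2.64). Between neuroblastoma-named cells and M2-named macrophages of the tumor libraries, H2-K1 stood at -1.65 and 1.78 (-3.43), Tap1 at -2.15 and 3.12 (-5.27), Psmb8 at -1.65 and 1.61 (-3.27) and Psmb9 at -1.73 and 2.02 (-3.75). H2-D1 was at 0.89 in neuroblastoma-named cells and -0.72 in B cells of the tumor libraries (1.61). Psmb8 was at -1.16 in M1-named and 1.61 in M2-named macrophages of the tumor libraries (-2.78). The M2-named tumor cells of these comparisons held fibroblast markers at 388 CPM in KO and 1396 CPM in WT, and the part of those cells' content was not tested. With 1 library a group, no search for samples far from their group could be made.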

How the results depend on the processing

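The 8 members called in neuroblastoma-named and fibroblast-named cells kept their direction under every alternative that gave a value. Of these values 2, of fibroblast-named cells, were under 1.5-fold (Tap1 at -0.33 with cells thinned to 2000 UMIs, Psmb9 at -0.50 without centring). Members under the UMI minimum gave no value. In neuroblastoma-named cells Nlrc5 and Psmb9 had values in 9 alternatives and Tap1 in 10, against 11 for H2-K1. In fibroblast-named cells Nlrc5 had 10. In neuroblastoma-named cells 2 members were lower in KO after thinning, and 1 was higher at 2-fold. Tap1 and Psmb9 stayed past 1.5-fold in these cells wherever they had a value. In sorted M1-named macrophages 5 were higher and 1 lower without centring, the same without mitochondrial, ribosomal protein and hemoglobin genes, 4 were higher after thinning, and 1 was lower at 2-fold. In sorted M2-named macrophages 6 were higher and 1 lower without centring, the same without mitochondrial, ribosomal protein and hemoglobin genes, and 1 was lower at 2-fold. Taking tumor in place of sorted libraries, an alternative chosen after seeing the data, gave 1 higher and 1 lower in M1-named and 9 higher and 0 lower in M2-named macrophages, where H2-D1 (1.41) and Psmb8 (1.61) reversed. The cause was not tested. Of 412 member values under alternatives, 262 stayed within the counting interval, 148 moved and 2, both of called members, reversed; 19 values of members not called also changed sign, with Tap2 in neuroblastoma-named cells running from -0.34 to 0.77. Counts over the 10 sorted leukocyte classes without centring, also chosen after seeing the data, left Psmb8 lower in 9 and moved H2-D1 to 3. No paired analysis was possible because the cells carry 1 library name per group. Leaving out replicates and a DESeq2 fit were not run for the same reason. Depth limits Nlrc5, with 10 UMIs in WT neuroblastoma-named cells, and Tap1, with 34 in KO.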
